A study of Mus musculus with 11 samples.

Results

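The apolipoprotein cluster of mouse chromosome 9 holds the genes Apoa1 (gene ID 11806), Apoc3 (11814), Apoa4 (11808) and Apoa5 (66113). Its members are all called peaks and nucleosomes lying wholly inside chr9:46020000-46090000 of build mm9, a window of 70 kb. The window held 20 factor peaks of 57382 in the 5 factor lists, and 336 nucleosomes of 1310379 in the 5 H3K4me2 lists at a nucleosome score of 52 or more. The window is defined by its position alone, but it was chosen with earlier results of these data known.

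Apolipoproteins are the protein parts of the particles that carry fat in lymph and blood. Enterocytes of the villus, the absorptive cells of the small intestine, pack dietary fat into chylomicrons and need apolipoproteins to export them. Apoa1 encodes the main protein of high-density lipoprotein, which takes cholesterol away from cells. Apoa4 encodes a chylomicron protein made chiefly by the intestine, Apoc3 encodes an inhibitor of lipoprotein lipase and of the clearance of triglyceride-rich particles, and Apoa5 encodes a promoter of that lipase made chiefly by the liver. HNF4A is a nuclear receptor of liver and intestinal epithelium that binds direct repeats of a hexamer, and this cluster is among its classic targets. CDX2 is the homeodomain factor that specifies intestinal epithelium.

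Chromatin immunoprecipitation and sequencing was done on villus epithelium of the jejunum of mice on a mixed 129xC57BL6 background. CDX2 was mapped in wild type (2 libraries) and in Hnf4a knockout (1 library), and HNF4A in wild type and in Cdx2 knockout (1 library each). H3K4me2, dimethylation of histone H3 at lysine 4, marks active promoters and enhancers. It was mapped in wild type, Cdx2 knockout, Hnf4a knockout and 2 double knockouts, with 1 library each. All 10 libraries were made from pooled ChIP DNA, and the labels name neither the driver of the knockouts nor the age of the mice. The double knockouts are called by their titles, Cdx2-Cdx1 and Cdx2-Hnf4a, because other labels of the same samples exchange Cdx1 and Hnf4a. All labels of both have Cdx2 deleted. Their second deleted gene is treated as unknown. The identity of the cells could not be checked against marker expression, since no expression data were used here.

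In the RefSeq gene table (build GRCm38.p6) the 4 genes follow each other in the order Apoa1, Apoc3, Apoa4, Apoa5, with no other gene between them, and Zpr1 comes next after Apoa5. That table is of another build than the peaks. Peaks are therefore given by mm9 position and are not assigned to a gene, exon, intron or start site here. Promoter sequences of 300 bases, 250 before and 50 after the start, were matched by symbol for 3 of the 4 genes, Apoa1, Apoa4 and Apoa5. They are shown because they are the regulatory DNA nearest to the genes of the window, from RefSeq build GRCm38.p6, plus strand, written 5′ to 3′. Capitals mark a match to the loose HNF4A motif CAAAGNNCA.
Apoa1, chr9:46228380-46228679: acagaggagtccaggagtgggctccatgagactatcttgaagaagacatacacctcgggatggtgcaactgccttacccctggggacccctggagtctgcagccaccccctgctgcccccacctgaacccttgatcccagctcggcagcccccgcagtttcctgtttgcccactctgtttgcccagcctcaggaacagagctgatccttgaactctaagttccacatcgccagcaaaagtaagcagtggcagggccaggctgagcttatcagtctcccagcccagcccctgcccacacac
Apoa4, chr9:46240594-46240893: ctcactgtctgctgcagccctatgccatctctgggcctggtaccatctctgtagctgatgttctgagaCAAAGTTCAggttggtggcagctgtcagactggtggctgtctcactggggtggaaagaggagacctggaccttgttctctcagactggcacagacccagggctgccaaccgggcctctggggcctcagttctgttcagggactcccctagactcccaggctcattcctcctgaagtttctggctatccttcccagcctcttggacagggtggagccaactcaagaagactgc
Apoa5, the more upstream of 2 listed starts, chr9:46268358-46268657: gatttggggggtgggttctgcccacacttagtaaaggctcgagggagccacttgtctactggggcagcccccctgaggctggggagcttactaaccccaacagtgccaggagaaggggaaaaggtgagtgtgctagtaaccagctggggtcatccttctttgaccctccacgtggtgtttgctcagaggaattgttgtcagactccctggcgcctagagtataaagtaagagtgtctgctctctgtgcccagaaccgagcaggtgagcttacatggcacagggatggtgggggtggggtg
On both strands, the strict HNF4A motif CAAAGTCCA, which is one form of the loose motif, had no match in these 3 sequences. It lay in 0.479% of 32544 promoters of the table. The loose motif had 1 match, CAAAGTTCA in the Apoa4 promoter at 182 to 174 bases before the start, and it lay in 6.38% of all promoters. The CDX2 motif TTTATNG had none in these 3 and lay in 10.8% of all promoters. A match is a description of letters and does not show binding.

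HNF4A bound the cluster densely in wild type. Of 9740 windows of 70 kb that held any HNF4A peak, 15 (0.154%) held as many as the 13 of the cluster or more. The median number over the 9740 was 2. These windows were tiled from each chromosome start and can split a dense stretch, while the cluster window was placed around its genes. The first 12 peaks of the cluster lay within 19.7 kb (46032184 to 46051838), with a median of 1558 bp between neighbouring midpoints. The 13th lay 21.8 kb further on. Their median score was 204.9 against 81.12 over the whole wild-type list. The score is the authors' own value per peak. No label says what it stands for, and it is assumed here to rise with the strength of the call.

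Along the chromosome, the peak scores in wild type began with 761.48 for peak 1 (46032184 to 46032742) and 77.78 for peak 2 (46033048 to 46033638). Peak 3 (46034920 to 46035663) scored 1435.33, the highest of the cluster and 45th of 22376 in the list. Peaks 4 to 6 scored 85.79 (46036532 to 46037166), 99.36 (46038107 to 46038581) and 188.16 (46038653 to 46039328). These 3 weaker peaks lay side by side under 1 broad CDX2 peak. Peak 7 (46043277 to 46044209) scored 641.21, peak 8 (46045430 to 46045842) 204.87 and peak 9 (46046754 to 46047347) 301.58. Peak 10 (46048572 to 46049458) scored 218.27, peak 11 (46049766 to 46050453) 210.14 and peak 12 (46051652 to 46051838) 50.71. The solitary peak 13 (46073612 to 46073831) scored 124.28. Peaks 1, 3 and 7 thus stood out, each above 97% of the list, and 10 peaks scored near 300 or less. The nearest HNF4A peak outside the window lay 4.05 kb before it (46014847 to 46015949, score 462.90), and the next one after it was 72.1 kb away.

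**Figure D1:**
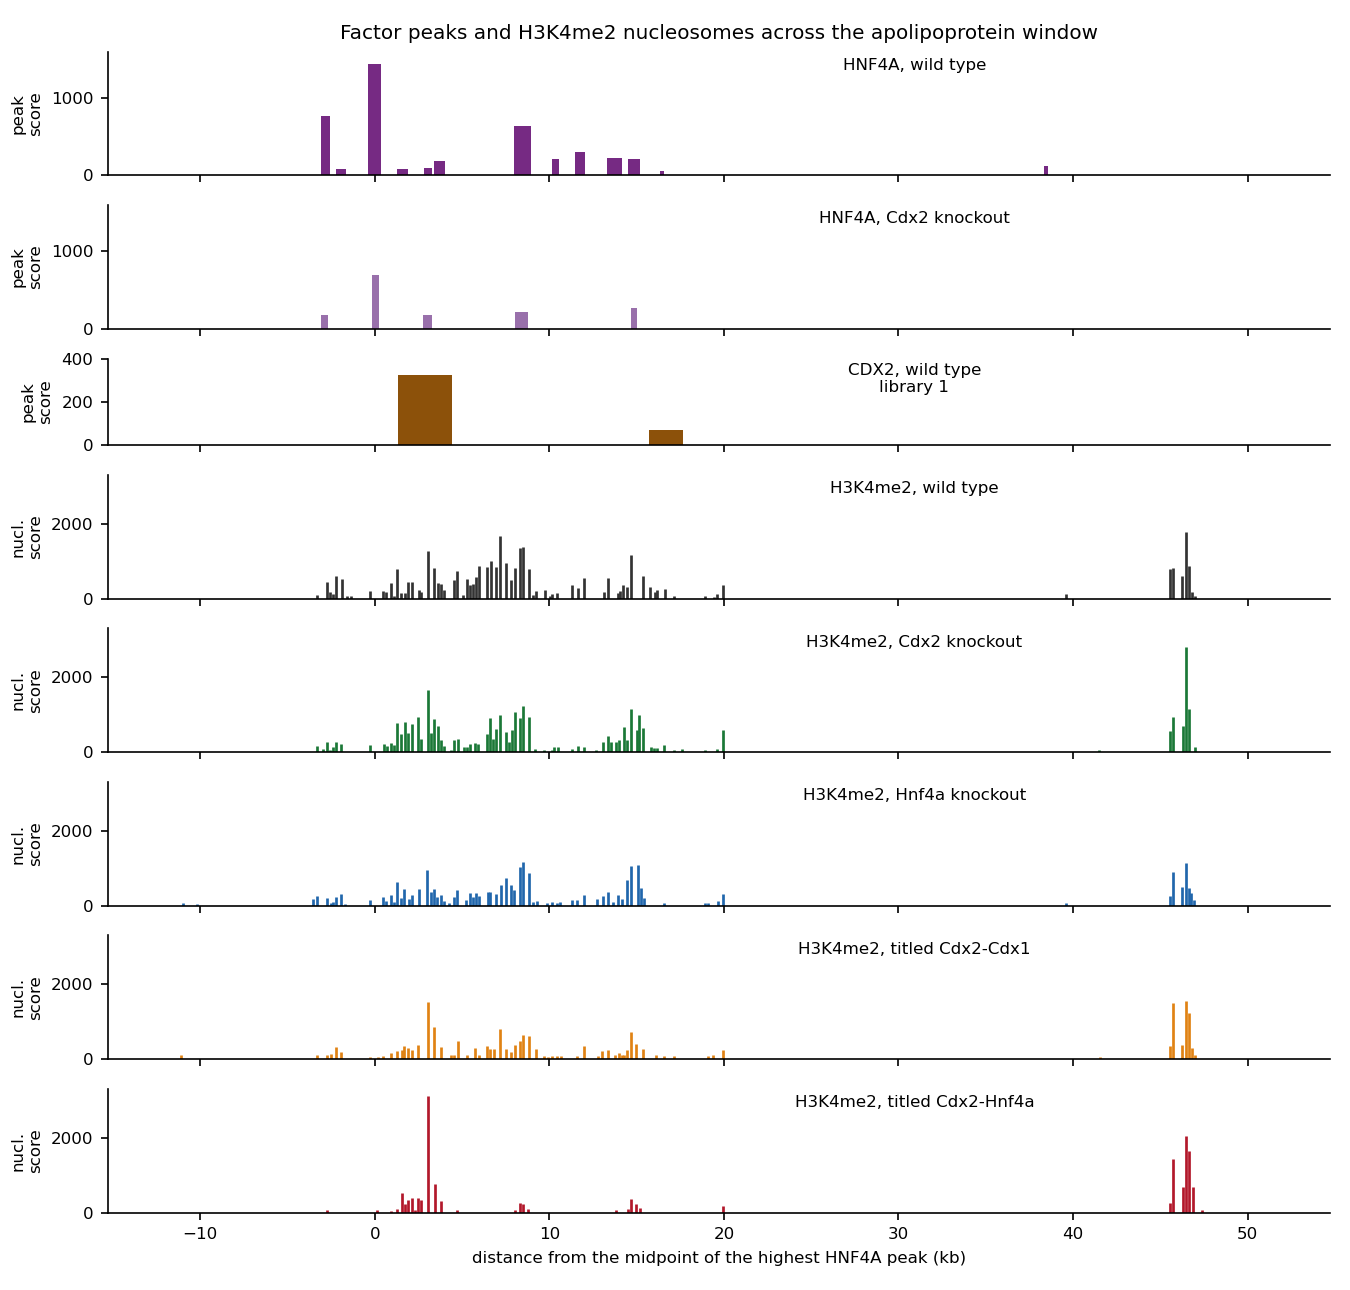
Position (distance in kb from the midpoint of HNF4A peak 3) against the authors' peak score for HNF4A and CDX2, and against the nucleosome score for H3K4me2 in each of 5 libraries. Bars span each peak, and lines stand at nucleosome centres. CDX2 wild-type library 2 and CDX2 in Hnf4a knockout are left out because they had 0 peaks. H3K4me2 of the library titled Cdx2-Hnf4a is sparse from about 4 to 20 kb but present near 3 kb and near 46 kb.

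To ask whether HNF4A occupancy of the cluster needs CDX2, its peaks were followed into Cdx2 knockout, where the list is shorter (9676 peaks). HNF4A was called again at 5 of the 13 peaks, or 38.5% (exact Clopper-Pearson 95% interval 13.9 to 68.4, counting error only). The background over all 22376 wild-type peaks was 30.1%. Over the wild-type peaks of score 100 or more it was 56.5%. The interval of the cluster's 38.5% holds the 30.1%. Of the 9 cluster peaks of score 100 or more, 4 (44.4%) were called again, to be set against the 56.5%. Each condition had 1 HNF4A library, so there is no replicate check and no test between conditions.

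The 3 strongest peaks were all called again, each with a lower score. Peak 1 had 761.48 in wild type and 184.91 in the knockout, peak 3 had 1435.33 and 698.38, and peak 7 had 641.21 and 217.78. The other 2 called peaks had a higher score in the knockout. Peak 5 had 99.36 and 175.92, and peak 11 had 210.14 and 273.81. Over all 6740 peaks called in both lists, 24.2% had the higher score in the knockout, and the median of the knockout score divided by the wild-type score was 0.644. That quotient was 0.243, 0.487 and 0.340 at peaks 1, 3 and 7, and 1.77 and 1.3 at peaks 5 and 11. The order of the peaks therefore differed between the libraries. Peak 11 ranked sixth of 13 in wild type and was the second highest of 5 in the knockout. The 8 peaks not called again scored 50.71 to 301.58 in wild type (median 156.2). Among them, peaks 8, 9 and 10 lay side by side between the called peaks 7 and 11, with scores of 204.87, 301.58 and 218.27, and peaks 12 and 13 were also neighbours. Not called means below the list's lowest score of 50 and is not the same as absent binding. All 5 knockout peaks of the window overlapped a wild-type peak, against 70.4% of the knockout list.

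**Figure D2:**
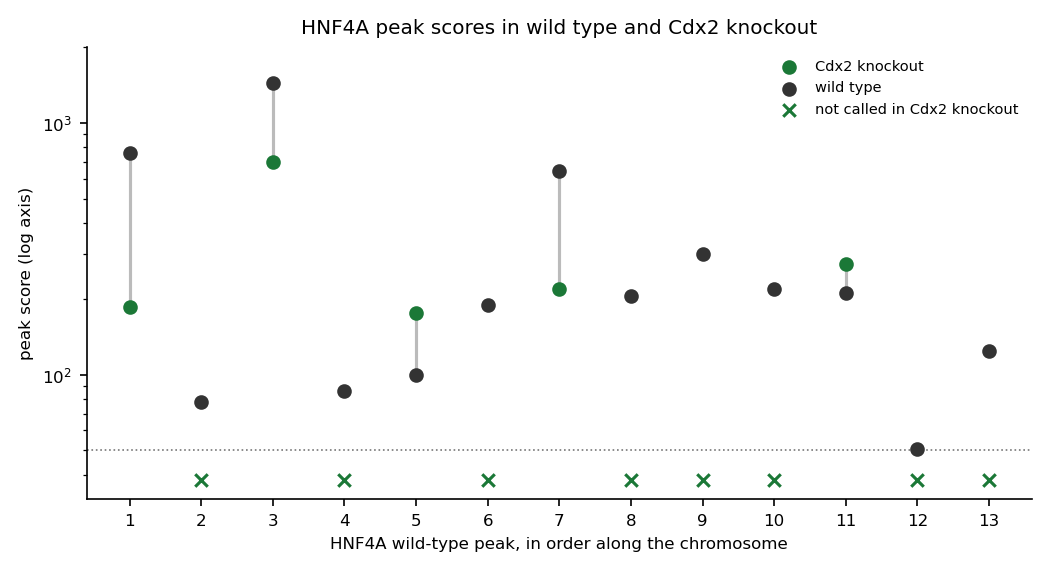
Authors' peak score (log axis) of the 13 HNF4A wild-type peaks in order along the chromosome, in wild type (dark) and Cdx2 knockout (green), 1 library each. Crosses mark the 8 peaks not called in the knockout, and the dotted line is the lowest score of the lists, 50. Peaks 5 and 11 are the 2 with a higher score in the knockout.

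CDX2 was called in the cluster in wild-type library 1 alone. The first of its 2 peaks (46036602 to 46039696) scored 323.41 and ranked 148th of 12121, and it overlapped HNF4A peaks 4, 5 and 6. The second (46050976 to 46052954) scored 69.95 and overlapped HNF4A peak 12. Wild-type library 2 (7441 peaks) had 0 peaks in the window, and so had CDX2 in Hnf4a knockout (5768 peaks). Over all library 1 peaks, 13.1% were called in library 2 and 8.6% in Hnf4a knockout, so absence from both lists was the common case over the whole list. The share among peaks that score as high as the first was not computed. As library 2 also lacked the peaks, their absence in Hnf4a knockout cannot be told apart from a difference between libraries. Both peaks were broad, at 3095 and 1979 bp against a median of 570 bp for library 1. Only 14 of its 12121 peaks (0.116%) were 3 kb or wider.

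HNF4A and CDX2 peaks met at 4 of the 13 HNF4A peaks, or 30.8% (9.09 to 61.4), against 16.5% of all HNF4A peaks. All 4 overlaps rest on the broad peaks of library 1. Without CDX2 library 1 the share was 0, and with factor scores of 100 or more, or with lists of equal length, it was 11.1% (1 of 9). Peak 5 was the only one of these 4 to be called in Cdx2 knockout. Peaks 4, 6 and 12, which were not, had wild-type scores of 85.79, 188.16 and 50.71. Over all HNF4A wild-type peaks 30.1% were called there, and the share among those at a CDX2 peak was not computed. The strongest HNF4A peaks, 1, 3 and 7, had no CDX2 peak in any list.

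H3K4me2 covered the HNF4A-bound stretch in wild type. The window held 77 nucleosomes of score 52 or more, with a median score of 354.3 against 241.6 over the wild-type list. Here the nucleosome score is 10 times the −log10 of the caller's p-value, per the file headers. Of 4349 windows of 70 kb with 20 or more wild-type nucleosomes, 56 (1.29%) held as many or more. These windows too were tiled from each chromosome start, so the same limit holds. Of the 77, 57 lay in 1 domain from 46034951 to 46052981, where a domain chains nucleosome centres of any list at most 1 kb apart. A domain before it (46031681 to 46033971) held 8, and one far behind it (46080781 to 46082741) held 7 with a median score of 794.7 and no factor peak within it. Between 46055271 and 46080781 wild type had 1 nucleosome. Neighbouring nucleosomes up to 300 bp apart had a median spacing of 195 bp in the cluster, the same as over the whole list.

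Wild-type nucleosomes stood on either side of the HNF4A peak midpoints at varying distances. Each distance is between the nearest nucleosomes before and after the midpoint, and these can lie inside the peak. At peak 3, the strongest, they stood 755 bp apart, centre to centre, and at peak 1 they stood 595 bp apart. The one before the midpoint of peak 3 (46034971 to 46035061) lay inside the peak. At peaks 10 and 11 the distances were 605 and 670 bp. At the rest of peaks 1 to 12 the distances were shorter, from 165 bp at peak 7 to 440 bp at peak 12. The 3 strongest peaks, 1, 3 and 7, thus held both the widest and the shortest of these distances for peaks 1 to 12. The midpoint lay inside a nucleosome at peaks 2, 5 and 7, so the distance there is not a gap around the midpoint. These were 3 of the 12 peaks with 2 or more nucleosomes within 1 kb, which is near the 22.7% of all such HNF4A peaks.

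The number of H3K4me2 nucleosomes was close to wild type in both single knockouts and far lower in 1 double knockout. The window held 77 in wild type, 81 in Cdx2 knockout, 78 in Hnf4a knockout, 68 for the library titled Cdx2-Cdx1 and 32 in the library titled Cdx2-Hnf4a. Scaled by the length of each list, the ratio to wild type was 1.01 (0.727 to 1.39) in Cdx2 knockout and 0.993 (0.716 to 1.38) in Hnf4a knockout. It was 0.769 (0.546 to 1.08) in the library titled Cdx2-Cdx1 and 0.37 (0.237 to 0.565) in the library titled Cdx2-Hnf4a. These intervals are exact binomial and cover counting error only, and the wild-type count is shared by all 4 ratios.

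Windows across the genome give the background. A ratio 1.5-fold or more below wild type was seen in 15.6% of the 4349 windows for Cdx2-Hnf4a, in 8.21% for Cdx2-Cdx1, in 5.82% for Cdx2 knockout and in 1.03% for Hnf4a knockout. A ratio 1.5-fold or more above wild type was seen in 3.5%, 2.05%, 1.26% and 0.598% in the same order. By nucleosome number the cluster passed the fold, downward, for Cdx2-Hnf4a, where 124 windows (2.85%) had a ratio as low or lower, and in none of the other 3. By summed score, scaled by the sum over each list, Cdx2-Cdx1 passed it too, with a ratio of 0.598. The ratio by summed score was 0.916 in Cdx2 knockout, 0.834 in Hnf4a knockout and 0.383 for Cdx2-Hnf4a. The share of windows that pass by summed score was not computed. By nucleosome number, 18.6% of windows were as low in the library titled Cdx2-Cdx1. In the single knockouts the cluster lay near the middle by number, with 57.1% and 52.4% of windows at or below it. Median window ratios were 0.984 in Cdx2 knockout, 0.981 in Hnf4a knockout, 0.931 for Cdx2-Cdx1 and 0.922 for Cdx2-Hnf4a. The median score of the nucleosomes called in the cluster was 354.3 in wild type, 260.7 in Cdx2 knockout, 254.5 in Hnf4a knockout, 224.6 for Cdx2-Cdx1 and 246.7 for Cdx2-Hnf4a. Over the whole lists the medians were 241.6, 249.7, 206.8, 199.1 and 238.9 in the same order. The mean score in the cluster was 460.2, 448.1, 330.6, 311.6 and 481.2, so that its median and mean differ in direction for Cdx2-Hnf4a. The called nucleosomes covered 7840 bp in wild type and 3300 bp for Cdx2-Hnf4a.

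**Figure D3:**
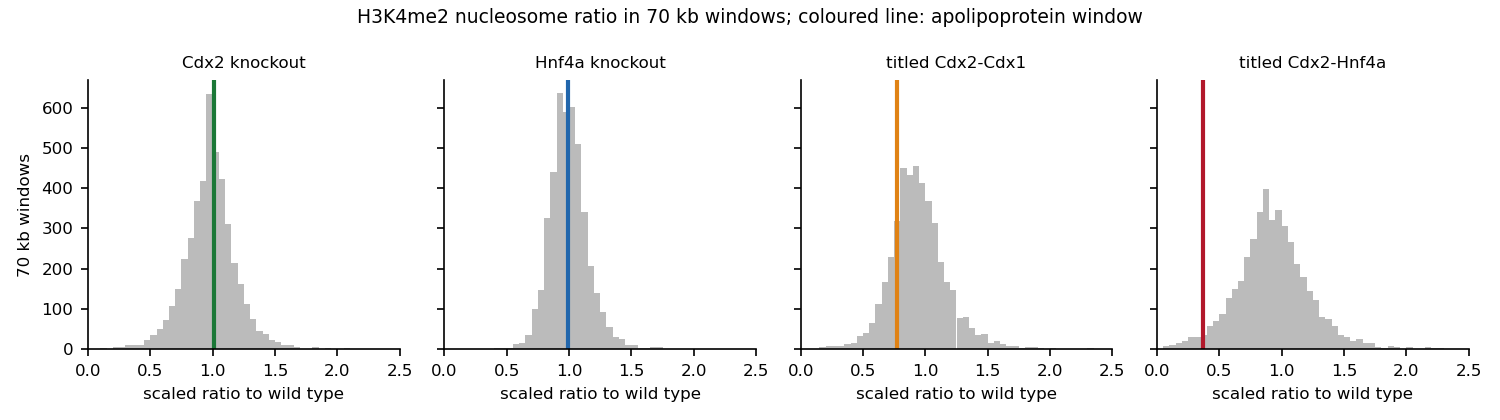
Scaled ratio of H3K4me2 nucleosomes to wild type in 4349 windows of 70 kb (grey, number of windows per ratio step), 1 panel per knockout library. The coloured line is the apolipoprotein window, at 1.01, 0.993, 0.769 and 0.37 from left to right.

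The difference of the library titled Cdx2-Hnf4a from wild type was uneven along the cluster. In the 5 kb from 46040001 to 46045000, wild type had 19 nucleosomes and this library 5, while Cdx2 knockout had 20, Hnf4a knockout 18 and Cdx2-Cdx1 16. From 46045001 to 46050000 the numbers were 14 in wild type, 3 in this library and 15 in each of the other 3. From 46030001 to 46035000 they were 8 and 1, with 7, 8 and 5 in Cdx2 knockout, Hnf4a knockout and Cdx2-Cdx1. From 46050001 to 46055000 they were 9 and 2, with 11, 7 and 7. The bin from 46035001 to 46040000, which holds the stronger CDX2 peak, held 13 against 18 in wild type, and 11 of those 18 were called again. The far bin from 46080001 to 46085000 held 7 in both. The summed score there was 6806 in this library and 5153 in wild type, whereas from 46040001 to 46045000 it was 733 and 14015.

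**Figure D4:**
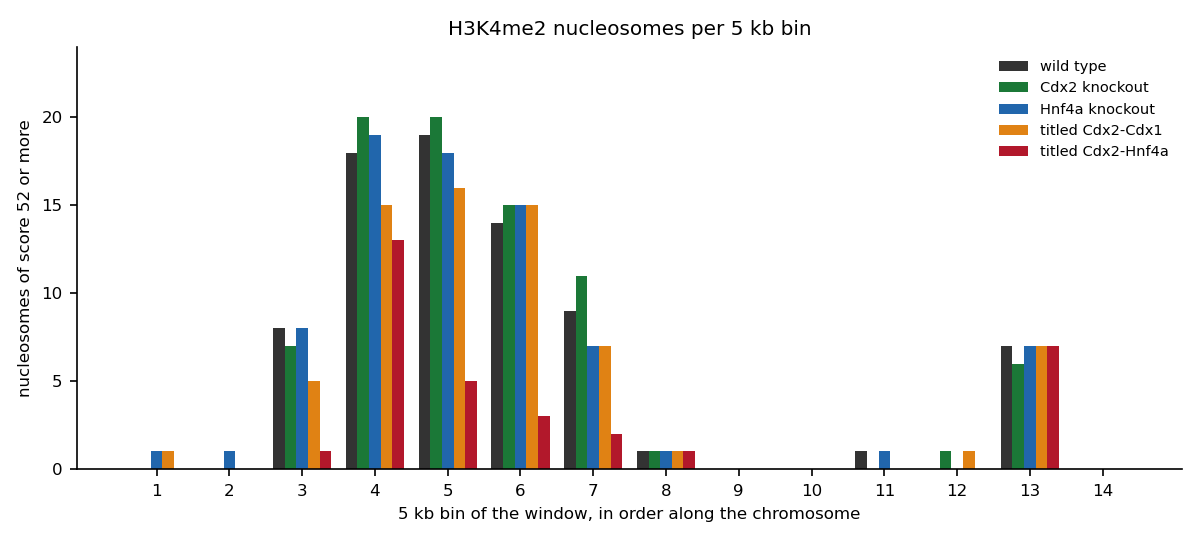
Number of H3K4me2 nucleosomes of score 52 or more in each 5 kb bin of the window, in order along the chromosome, for the 5 libraries (1 bar each). In bins 5 and 6 the library titled Cdx2-Hnf4a has 5 and 3 where wild type has 19 and 14, and in bin 13 both have 7.

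Single nucleosomes were then followed. A wild-type nucleosome was taken as called again where another list had a nucleosome centre within 73 bp. Of the 77, 69 were called again in Cdx2 knockout (89.6%, 80.6 to 95.4), 64 in Hnf4a knockout (83.1%, 72.9 to 90.7) and 55 for the library titled Cdx2-Cdx1 (71.4%, 60 to 81.2). In the library titled Cdx2-Hnf4a it was 26 (33.8%, 23.4 to 45.4). Over all 245431 wild-type nucleosomes the shares were 77.6%, 76.8%, 73.8% and 70.9%. The interval of the cluster thus lay below the whole-list share for the library titled Cdx2-Hnf4a, above it for Cdx2 knockout, and held it for the other 2. With centres within 40 bp the share in Cdx2 knockout was 76.6% (65.6 to 85.5) against 73.4% of the whole list, so that this interval held it too. Neighbouring nucleosomes are not independent, so these intervals may be too narrow. The whole-list shares are not matched for score, and the median wild-type score was 354.3 in the cluster against 241.6 over the list. A knockout nucleosome can also count for 2 wild-type ones, as the one at 46049241 to 46049331 did in Cdx2 knockout.

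Even high-scoring nucleosomes were missing in the library titled Cdx2-Hnf4a. A level of 500 was chosen for this after the values were seen. Of the 28 wild-type nucleosomes of the cluster at 500 or more, 14 were called there, against 93.0% over the whole list. All 28 were called in both single knockouts (96.6% and 94.6% over the whole list in Cdx2 and Hnf4a knockout) and 27 for Cdx2-Cdx1 (93.3%). The second highest of the cluster (46042421 to 46042531) scored 1678.4 in wild type, 991.0 in Cdx2 knockout, 548.7 in Hnf4a knockout and 796.3 for Cdx2-Cdx1, and was not called for Cdx2-Hnf4a. The third highest (46043721 to 46043811), under HNF4A peak 7, scored 1366.3, 1241.2, 1164.0, 634.3 and 240.3 in the same order. The highest (46081701 to 46081791), in the far domain, scored 1788.0, 2811.2, 1145.7, 1557.7 and 2040.1. A nucleosome under the broad CDX2 peak (46038241 to 46038371, chosen after its values were seen) scored 1283.0, 1660.8, 945.9, 1526.1 and 3122.6. The last value is the highest of any nucleosome of the window in any list, in the library with the fewest.

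Missing nucleosomes formed runs. In the library titled Cdx2-Hnf4a the longest run of consecutive wild-type nucleosomes that were not called held 14 (46044281 to 46049561, wild-type median score 200.5) and spans HNF4A peaks 8, 9 and 10. The next held 12 (46040321 to 46043161, median 707.4, up to 1678). Another 2 runs held 9 each, at 46032701 to 46035991, across HNF4A peaks 2 and 3, and at 46050591 to 46054971, across peak 12. The remaining runs held 1 or 2. No run was longer than 3 in Hnf4a knockout, or longer than 2 in Cdx2 knockout and in the library titled Cdx2-Cdx1. The run of 3, at 46050981 to 46051511, lay within the weaker CDX2 peak. Of the 77 nucleosomes, 24 were called in all 4 knockout lists and 3 in none. A further 25 were called in the other 3 lists and were missing for Cdx2-Hnf4a alone, against 5.53% of the whole wild-type list. Those missing for Cdx2 knockout alone numbered 1 (2.88%), and for Hnf4a knockout alone and Cdx2-Cdx1 alone 0 (5.82% and 3.91%).

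**Figure D5:**
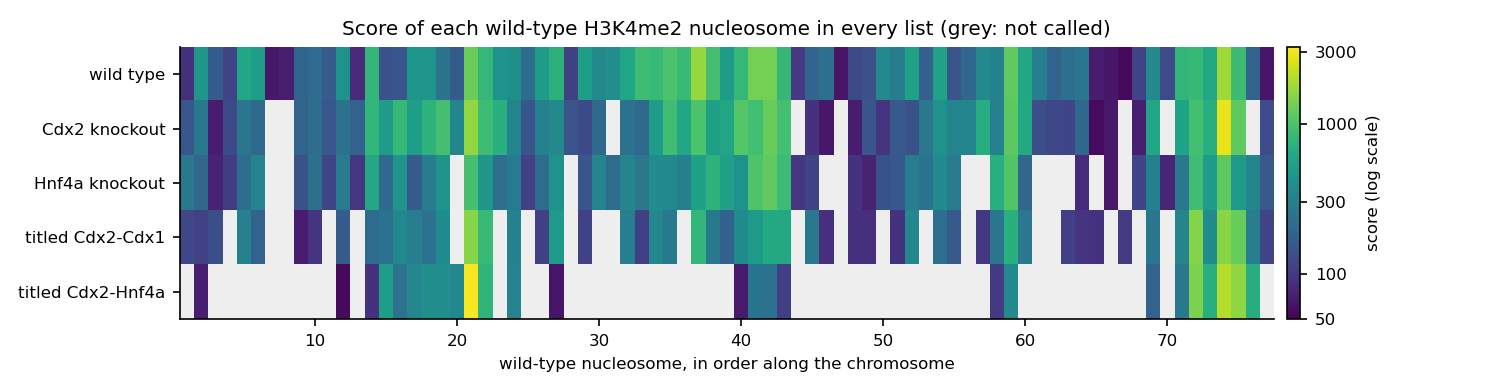
Nucleosome score (colour, log scale) of the 77 wild-type H3K4me2 nucleosomes in order along the chromosome, in each of 5 libraries. Grey cells were not called within 73 bp. The library titled Cdx2-Hnf4a has 26 coloured cells, with grey runs of 14, 12, 9 and 9.

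Among nucleosomes called in both lists, scores were more often lower than in wild type. Of those called again, 38 of 69 were lower in Cdx2 knockout, against 39.7% over the whole list, and 48 of 64 in Hnf4a knockout, against 58.0%. The numbers were 41 of 55 for Cdx2-Cdx1 (49.1%) and 16 of 26 for Cdx2-Hnf4a (42.6%). Scores move with depth, which is unknown.

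At the factor-bound elements, defined as merged peaks of the 5 lists, H3K4me2 was counted within 1 kb of the centre. Of the 11 elements, 9 had 4 or more wild-type nucleosomes. A scaled number 1.5-fold or more below wild type was found at 8 of these 9 in the library titled Cdx2-Hnf4a (31.8% of 12281 elements genome-wide) and at 3 in Cdx2-Cdx1 (29.1%). It was found at 1 in Hnf4a knockout (9.45%) and at 0 in Cdx2 knockout (17.9%). None of the 9 was 1.5-fold higher in any list, against 0.977%, 1.03%, 1.48% and 1.05% in the same order. Several windows of 1 kb overlap, so these elements share nucleosomes.

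The element of HNF4A peak 1 had 6 nucleosomes in wild type, 7 in Cdx2 knockout, 7 in Hnf4a knockout, 5 for Cdx2-Cdx1 and 1 for Cdx2-Hnf4a. At peak 3, the numbers in the same order were 4, 4, 4, 4 and 2. At peak 7 they were 8, 8, 8, 7 and 4, and the summed scores were 6071, 5652, 4984, 2836 and 670. HNF4A peaks 8 and 9, both not called in Cdx2 knockout, had 5 and 3 nucleosomes in wild type, 5 and 4 in Cdx2 knockout, and 0 and 0 for Cdx2-Hnf4a. Their summed scores were 915 and 1186 in wild type and 510 and 462 in Cdx2 knockout, so nucleosomes were still called beside these peaks there, at lower scores. At peak 10 the numbers were 7, 8, 8, 9 and 3, and at peak 11 they were 7, 7, 7, 7 and 4.

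The element with the stronger CDX2 peak and HNF4A peaks 4 to 6 was the exception. It had 8 nucleosomes in wild type, 9 in Cdx2 knockout, 8 in Hnf4a knockout, 6 for Cdx2-Cdx1 and 8 for Cdx2-Hnf4a. The summed scores were 4227, 6657, 3169, 3604 and 5761. This element is 3165 bp wide, so these counts within 1 kb of its centre leave out most of HNF4A peak 4 and the end of peak 6. The element with the weaker CDX2 peak and HNF4A peak 12 was the only one past the fold in Hnf4a knockout, with 5, 6, 1, 3 and 0. The element of HNF4A peak 2 had 7, 5, 6, 4 and 1. The solitary peak 13 had 0 nucleosomes within 1 kb in every H3K4me2 list.

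Nucleosomes absent from wild type appeared inside 2 HNF4A peaks in all 4 knockout lists. These were peaks 10 and 11, of 12 in the cluster with 2 or more wild-type nucleosomes within 1 kb, against 3.28% of 14740 such peaks genome-wide. This pattern was looked for after the values were seen. In peak 11, wild type had no nucleosome between 46050051 and 46050591. In that gap Cdx2 knockout had 2, at 46050241 to 46050331 (score 579.4) and 46050401 to 46050501 (979.4). Hnf4a knockout had 2, at 46050281 to 46050401 (1072.1) and 46050461 to 46050571 (479.1). The library titled Cdx2-Cdx1 had 1 at 46050201 to 46050291 (393.1). The library titled Cdx2-Hnf4a had 2, at 46050191 to 46050321 (226.1) and 46050411 to 46050501 (111.8). HNF4A was called at this peak in Cdx2 knockout with the higher score given above. In peak 10, where HNF4A was not called in Cdx2 knockout, new nucleosomes lay at 46049061 to 46049151 in Cdx2 knockout (260.7) and 46048921 to 46049001 in Hnf4a knockout (108.6). Those at 46048951 to 46049121 for Cdx2-Cdx1 and 46049051 to 46049151 for Cdx2-Hnf4a scored 120.9 and 59.0. Cdx2 knockout had another in peak 10 at 46048781 to 46048861 (259.4). Hnf4a knockout and Cdx2-Cdx1 each had another at 46049381 to 46049461 (168.2 and 98.8). Its edge overlaps the wild-type nucleosome at 46049451 to 46049561, and it counts as absent from wild type only because the centres lie more than 73 bp apart. A shifted call was not told apart from a new one. Nucleosomes new to the whole window made up 16% in Cdx2 knockout, 17.9% in Hnf4a knockout, 19.1% for Cdx2-Cdx1 and 18.8% for Cdx2-Hnf4a. Over the whole lists these shares were 25.8%, 24.6%, 35.7% and 36.9%.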

How the data were processed

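Peaks of CDX2 and HNF4A and nucleosomes marked by H3K4me2 were taken as deposited by the authors, with 1 list per library. The factor score and the nucleosome score are deposited values. The latter is 10 times the −log10 of a p-value, per the file headers, and no header or label says what the factor score stands for. Peak names carry the word MACS. The build is mm9, per the submitters' processing notes. No read numbers came with the lists, which leaves depth unknown, and scores and list lengths may move with it.

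Nucleosomes of score 52 or more were used in every list, because the Hnf4a knockout list reaches lower (485509 deposited, 250282 used). Peaks were matched by an overlap of 1 bp or more, and nucleosomes by centres within 73 bp. Numbers were scaled by list length. Peak positions count from 1, and nucleosome positions are as filed. Analyses used Python 3.11.15, pandas 2.3.3 and scipy 1.17.1, and the matching and ratio steps were tested on simulated data. No p-value between conditions was computed: each had 1 library, except CDX2 in wild type, whose 2 libraries are not said to come from separate animals. The input sample was not analysed here. Every factor peak was named, with the 3 wild-type nucleosomes of highest score. The members, lists and windows were chosen with earlier results of these data known. A list of 17 other lipid genes was set up but not placed, because the gene table is of another build.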

Additional observations from a re-analysis of the deposited data

How the results depend on the processing

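Of 55 alternative values, 53 stayed inside the 95% interval of the value reported. For the factor shares these intervals are wide, so that staying inside says little. The share of HNF4A peaks at a CDX2 peak, 30.8% (9.09 to 61.4), counts as staying at 11.1%. That share was 0 without CDX2 wild-type replicate 1 and 30.8% without replicate 2. The share of CDX2 peaks called in Hnf4a knockout was 0 without replicate 2, and without replicate 1 no CDX2 peak was left to follow. With centres within 40 bp, 76.6% of the wild-type nucleosomes were called again in Cdx2 knockout in place of 89.6%. The H3K4me2 ratio of the library titled Cdx2-Hnf4a was 0.304 at a score of 100 or more and 0.43 with the window widened by 10 kb on each side, and its other alternatives lay between these. No paired analysis was possible because only CDX2 in wild type had more than 1 library. Small numbers limit the factor shares, with 13 and 2 peaks.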

Other observations

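The score minimum touched the Hnf4a knockout list most. It left out 42 nucleosomes of the window there, scoring 5.2 to 49.5, and 2 in Cdx2 knockout, 1 in the library titled Cdx2-Cdx1 and 0 in both wild type and the other double knockout. The lowest score kept in the window was 52.8 in Hnf4a knockout and 55.3 in wild type. The HNF4A peak 4.05 kb before the window had a score of 462.90, and the knockout peak there scored 141.72. The nearest CDX2 peaks outside the window lay 27.0 kb after it in wild-type library 1 (score 61.37) and 31.9 kb before it in library 2 (51.32). Those of the Hnf4a knockout list nearest to it lay 169 kb after it (58.97).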
